A study of Homo sapiens with 12 samples.

Results

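The 8 genes JUN, JUNB, JUND, FOS, FOSB, FOSL1, FOSL2 and JDP2 encode subunits of the transcription factor AP-1, and they were taken by symbol from the 19647 genes of an RNA-seq table of A549 cells. A549 is an established cell line from a human lung adenocarcinoma. The series holds 12 libraries in 4 groups of 3, and all cells were otherwise untreated: A549 cells overexpressing NR0B1 (OE), their wild-type overexpression control (OE control), A549 cells with NR0B1 knocked down by a short hairpin RNA (KD, shNR0B1), and their wild-type knockdown control (KD control, shNC). NR0B1 (DAX1) belongs to the nuclear receptors without a known ligand and mostly represses transcription as a partner of other receptors, and the title of the series places it in glutathione metabolism and ferroptosis of lung cancer cells. The vector, the promoter that drives NR0B1, the hairpin sequence and whether each derivative is a pool or a clone are not given in the labels, and nothing says that the 3 libraries of a group came from separate cultures. The p-values therefore measure the spread between these libraries, which may be technical.

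AP-1 is a dimer of leucine zipper proteins that binds the DNA element TGACTCA, also called the phorbol ester response element, and more weakly the cyclic AMP response element TGACGTCA. JUN, JUNB and JUND can pair with each other and with FOS proteins, whereas FOS, FOSB, FOSL1 and FOSL2 need a JUN partner to bind. FOS and FOSB are immediate early genes, transcribed briefly after growth factor or stress signals, while FOSL1 is more stably expressed and is often high in carcinoma cells with active RAS signalling. JDP2 pairs with JUN proteins and mostly represses AP-1 targets.

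The libraries held between 15049011 and 22797076 expected counts, and all 8 genes reached the level required for testing. NR0B1 itself had 98.9, 81.8 and 84.1 CPM (counts scaled to library size, with TMM factors) in OE cells, against 17.9, 60.1 and 55.2 CPM in OE control cells. The groups did not overlap, but the log2 difference of 0.99 did not pass the test (edgeR adjusted p = 0.0912). In KD cells NR0B1 had 2.99, 3.31 and 5.84 CPM, against 16.3, 21.1 and 13.3 CPM in KD control cells, a log2 difference of -2.06 (edgeR adjusted p = 0.00593). OE control 1 and KD 2 were the libraries least like the others of their groups over all genes. Epithelial markers were detected in every library and those of fibroblasts and endothelial cells summed to at most 2.46 FPKM (fragments scaled to transcript length and library size), while the 4 leukocyte markers summed to 1.36 to 1.84 FPKM in OE, 4.0 to 4.46 in OE control, 1.55 to 3.93 in KD and 0.42 to 0.79 in KD control, with at least 2 of them at 0 in each library.

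Promoter windows of the members, from 250 bases before to 50 bases after the annotated start, were taken from RefSeq (GRCh38.p14), which matched 7 of the 8 genes. They were searched on both strands for TGACTCA, TGACGTCA, the variants TGACATCA and TTACCTCA known from the JUN promoter, and the shorter core TGACG, which also lies within TGACGTCA. The 3 windows that hold one of the longer elements are shown, as the only ones of the 7 genes with such letters, with those elements in capitals, 5′ to 3′ on the gene's strand: JUN at chr1:58783998-58784297 on the minus strand, JUND at chr19:18281573-18281872 on the minus strand and FOSL2 at chr2:28392608-28392907 on the plus strand.
JUN: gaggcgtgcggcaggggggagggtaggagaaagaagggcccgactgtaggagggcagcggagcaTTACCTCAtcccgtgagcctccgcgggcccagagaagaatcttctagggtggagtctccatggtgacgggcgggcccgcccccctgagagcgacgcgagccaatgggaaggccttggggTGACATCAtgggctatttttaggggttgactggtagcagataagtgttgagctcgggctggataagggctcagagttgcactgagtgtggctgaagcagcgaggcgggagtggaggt
JUND: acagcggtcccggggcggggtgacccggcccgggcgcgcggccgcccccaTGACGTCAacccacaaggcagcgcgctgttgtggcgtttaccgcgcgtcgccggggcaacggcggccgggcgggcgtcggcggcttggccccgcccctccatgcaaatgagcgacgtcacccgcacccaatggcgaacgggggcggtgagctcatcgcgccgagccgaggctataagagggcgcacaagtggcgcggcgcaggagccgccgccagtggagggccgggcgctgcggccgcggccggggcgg
FOSL2: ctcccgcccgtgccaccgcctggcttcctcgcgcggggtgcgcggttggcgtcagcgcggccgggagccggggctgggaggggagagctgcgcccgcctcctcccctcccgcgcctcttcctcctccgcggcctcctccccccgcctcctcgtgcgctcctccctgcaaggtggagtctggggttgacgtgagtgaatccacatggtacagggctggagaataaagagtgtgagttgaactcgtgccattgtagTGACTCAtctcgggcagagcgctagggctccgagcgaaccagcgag
The RefSeq starts of JUN and FOSL2 lie inside the GENCODE gene bounds given below, so that both windows fall within those bounds. Counted from the RefSeq start, TTACCTCA in JUN begins 186 bases and TGACATCA 67 bases before it. JUND holds TGACGTCA 200 bases before the start, and FOSL2 holds TGACTCA beginning 5 bases after the start. Among 34796 windows of the same length in the table, 4.96% hold TGACTCA, 1.84% TGACGTCA, 2.60% TGACATCA and 0.713% TTACCTCA. The core TGACG lies in a window of each of the 7 matched members, in 1 of the 3 windows of JDP2, against 24.5% of all windows, and the SRF-binding CArG box lies in none of the 7, against 1.299% of all windows. Elements more than 250 bases before the start lay outside the windows, so a CArG box further upstream would not have been found. These matches describe letters only, and binding was not measured.

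RNA of most AP-1 subunits was higher with NR0B1 overexpression, by unequal amounts. Of the 8 genes, 5 rose and 0 fell in OE relative to OE control cells (edgeR's quasi-likelihood test, adjusted p below 0.05), where 18.1% of all 11908 genes tested were called, 9.87% higher and 8.20% lower. The 5 were FOSB, JUN, FOSL1, JDP2 and JUND. FOS and FOSL2 had positive differences and JUNB a negative one that missed the threshold. Without OE control 2 or OE control 3, 3 were called, namely FOSB, JUN and FOSL1. The median log2 difference was 1.05 over the members and -0.03 over all genes tested. Ranges did not overlap for 7 members, higher in OE for 6 and lower for JUNB, where 21.6% of all genes were higher and 21.9% lower without overlap.

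Knockdown split the family. In KD relative to KD control cells, JUN, FOSL1 and FOSL2 fell while FOS and FOSB passed the test upward, so that 3 members fell and 2 rose, where 23.9% of all genes were called, 11.5% lower and 12.4% higher. The upward calls of FOS and FOSB were lost when KD 1, KD control 1 or KD control 2 was left out, while the 3 downward calls remained. The median log2 difference was -0.45 over the members, against 0.03 over all genes. In KD 4 members were lower without overlap and 1, FOSB, was higher, where 20.6% and 20.2% of all genes were. JUNB and JDP2 had intervals on both sides of 0.

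**Figure D1:**
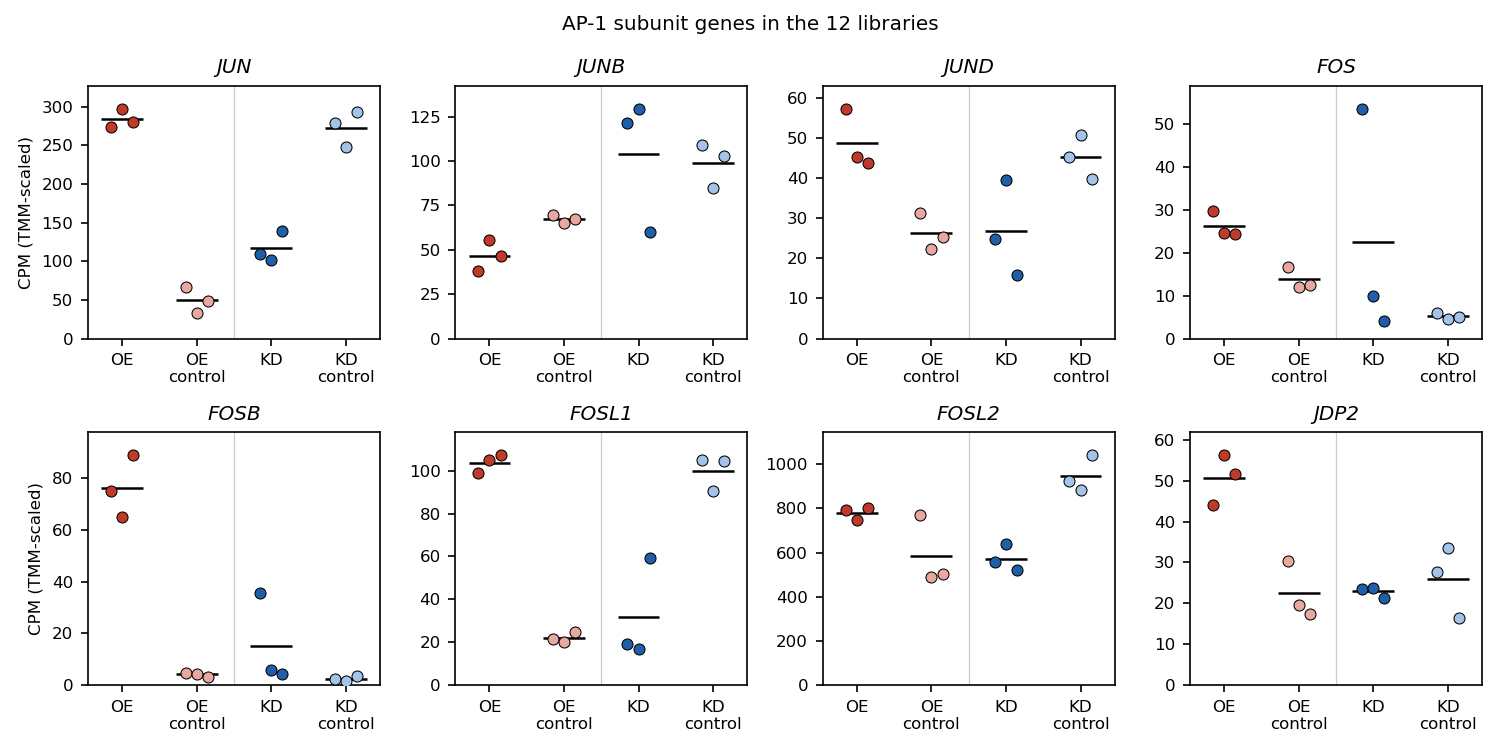
TMM-scaled CPM of each member in each library, with 1 point per library and a line at the mean of the 3 libraries. JUN and FOSL1 sit high in OE and KD control and low in OE control and KD, FOSB is high in OE, and FOS and FOSB in KD have 1 high library.

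**Figure D2:**
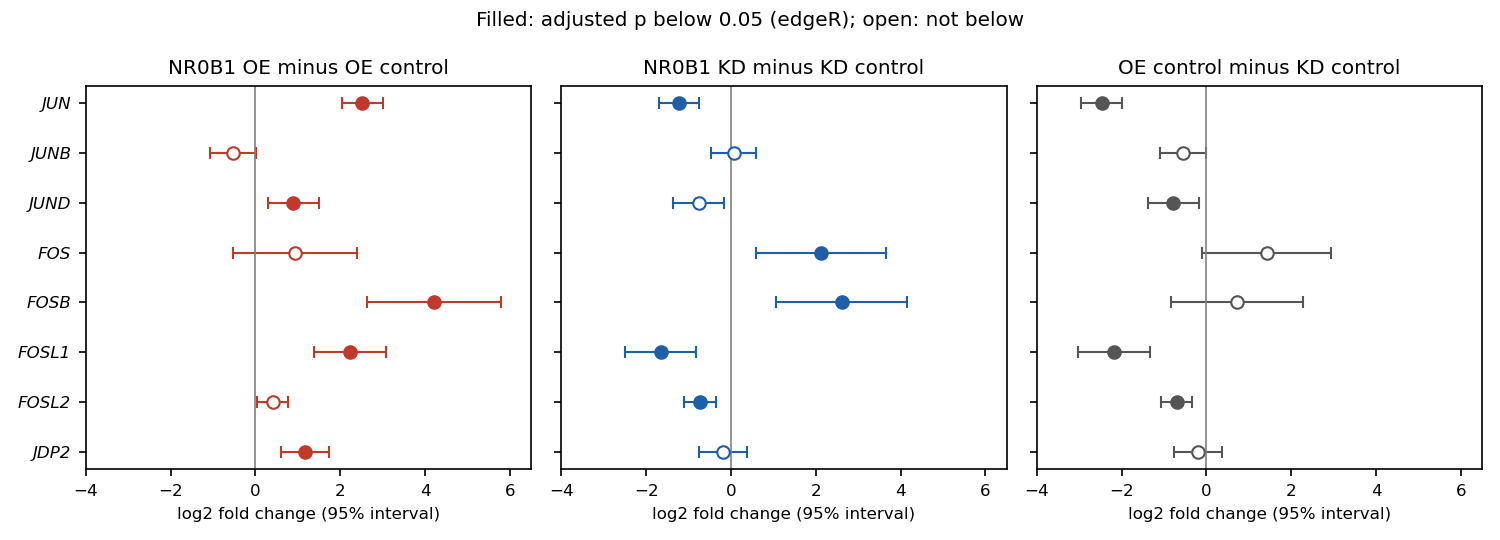
Log2 differences of the 8 members with 95% confidence intervals in the 2 arms and between the 2 control groups; filled points have an edgeR adjusted p below 0.05. JUN and FOSL1 lie right of 0 for overexpression and left of 0 for knockdown and between the controls.

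JUN encodes c-Jun, the subunit phosphorylated by JNK kinases, and is a gene of 1 exon (ENSG00000177606, chr1:58780788-58784327, minus strand, GRCh38). Its CPM was 274, 297 and 280 in OE libraries, against 66.8, 32.9 and 48.2 in OE control libraries, a 5.75-fold rise (log2 2.52 ± 0.22 SE, edgeR adjusted p = 0.000212). Every OE library was far above every OE control library. Knockdown gave the opposite direction, with 109, 101 and 140 CPM in KD libraries, against 278, 247 and 293 in KD control libraries. The fall was 2.34-fold (log2 -1.23 ± 0.21 SE, edgeR adjusted p = 0.00268), again without overlap. Both JUN calls held under every alternative run. The difference between the 2 arms' responses was 3.75 on the log2 scale (edgeR adjusted p = 5.75e-05). JUN levels in OE and in KD control cells overlapped, and both were above KD, which was above OE control.

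JUNB, which often opposes c-Jun in growth control, lies at chr19:12791496-12793315 on the plus strand (ENSG00000171223), where it overlaps HOOK2. It was the one member lower in OE, with 38.0, 55.3 and 46.4 CPM in OE libraries, against 69.8, 64.9 and 67.4 in OE control libraries. The groups stood apart, but the log2 difference of -0.53 had an interval of -1.07 to 0.01 and did not pass (edgeR adjusted p = 0.149). It passed when KD 3 was left out (adjusted p = 0.0233) and with only the 6 libraries of the arm in the fit (adjusted p = 0.0483). In the knockdown arm JUNB had 122, 129 and 60.2 CPM in KD libraries, against 109, 84.7 and 103 in KD control libraries. KD 3 lay below all 3 KD control libraries and the other 2 above them, and the log2 difference of 0.07 had an interval of -0.46 to 0.60 (edgeR adjusted p = 0.860).

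JUND, the JUN gene usually expressed most evenly between resting and growing cells, lies at chr19:18279760-18281622 on the minus strand (ENSG00000130522). Its CPM was 57.3, 45.3 and 43.8 in OE libraries, against 31.2, 22.4 and 25.4 in OE control libraries. The groups did not overlap, and the log2 difference of 0.89 ± 0.27 (SE) passed narrowly (edgeR adjusted p = 0.0441). Leaving out any of 9 single libraries ended the call, with adjusted p up to 0.143 without OE control 2. JUND had 24.9, 39.6 and 15.8 CPM in KD libraries, against 45.2, 50.8 and 39.7 in KD control libraries. KD libraries were all lower, KD 2 only just, and the log2 difference of -0.76 missed the threshold (edgeR adjusted p = 0.0656), passing at -1.15 without KD 2 (adjusted p = 0.00374). The arms differed by 1.65 (edgeR adjusted p = 0.0106).

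The balance within the JUN genes also differed between the groups. JUN made up 48.7%, 51.1% and 49.9% of the summed FPKM of JUN, JUNB and JUND in OE libraries, against 19.4%, 12.7% and 16.6% in OE control libraries. The shares did not overlap and differed by 33.7 percentage points (2-sided exact permutation test p = 0.1, the smallest that 3 against 3 libraries allow). JUNB correspondingly took 15.9% ± 2.69 of the JUN genes' FPKM in OE and 44.4% ± 4.57 in OE control cells (SD, n = 3 each). In the knockdown arm JUN took 29.1% ± 12.7 in KD and 41.7% ± 2.63 in KD control cells (SD, n = 3 each). KD 3, at 43.5%, lay within the range of KD control, and the difference of -12.6 points was not separable from the spread (2-sided exact permutation test p = 0.3). JUNB took 46.0% ± 8.43 in KD and 29.4% ± 2.53 in KD control cells (SD, n = 3 each). These JUNB shares did not overlap (2-sided exact permutation test p = 0.1).

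FOS, the founding FOS protein and a classic immediate early gene, lies at chr14:75278774-75282230 on the plus strand (ENSG00000170345). FOS had 29.7, 24.7 and 24.5 CPM in OE libraries, against 16.8, 12.1 and 12.5 in OE control libraries. The groups did not overlap, but the spread that all 12 libraries shared was wide for this gene and the log2 difference of 0.93 did not pass (interval -0.54 to 2.40, edgeR adjusted p = 0.352). With only the 6 libraries of the overexpression arm in the fit it passed (adjusted p = 0.0131). In KD libraries FOS had 53.6, 10.002 and 3.998 CPM, against 5.99, 4.51 and 4.99 in KD control libraries. KD 1 was far above every other library and KD 3 below all KD control libraries. The log2 difference of 2.13 ± 0.70 (SE) passed at edgeR adjusted p = 0.0476, and without KD 1 it was 0.44 (adjusted p = 0.388). Every one of the single-library omissions but 2 ended this call.

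FOSB, the immediate early gene with the largest rise of the family in OE cells, lies at chr19:45467995-45475179 on the plus strand and overlaps ERCC1 (ENSG00000125740). It had 75.1, 65.3 and 88.9 CPM in OE libraries, against 4.77, 4.42 and 3.12 in OE control libraries. This was an 18.6-fold rise (log2 4.21 ± 0.72 SE, interval 2.63 to 5.80, edgeR adjusted p = 0.00474), and no other library of the series reached the OE level. In KD libraries FOSB had 35.8, 5.77 and 4.12 CPM, against 2.29, 1.66 and 3.52 in KD control libraries. All 3 KD libraries were higher, KD 1 by far, and the log2 difference of 2.61 passed at edgeR adjusted p = 0.0212. Without KD 1 it was 0.98 (adjusted p = 0.0522), and it also missed the threshold without KD control 1 (adjusted p = 0.0732) or KD control 2 (adjusted p = 0.0767). The arms' responses did not differ beyond the spread for FOSB (log2 1.60, edgeR adjusted p = 0.233) with KD 1, and differed by 3.23 without it (adjusted p = 0.0013).

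KD 1 was high for a narrow group of early genes. EGR1, a zinc finger immediate early gene, had 62.1, 20.003 and 3.51 CPM in the 3 KD libraries, against 10.9 to 14.4 CPM in KD control. EGR3 had 2.47 CPM in KD 1 and 0.43 CPM in KD 2 and in KD 3, against 0.105 to 0.237 CPM in KD control. In KD control libraries 3 counts correspond to 0.158 to 0.178 CPM, so these EGR3 control values rest on few counts. Of 19 other immediate early genes tested, 4 were highest in KD 1 among the KD libraries and 2 exceeded the median of KD 2 and KD 3 by more than 2-fold. A single high library was not particular to KD 1. NR4A1 had 9.85, 39.0 and 10.3 CPM and NR4A2 4.59, 19.3 and 2.03 CPM in the 3 KD libraries, highest in KD 2. The summed FPKM of the heat shock list was 1537 in KD 1, 781 in KD 2 and 2443 in KD 3, against 418 to 586 in KD control, so that KD 1 was not the highest there. The part of heat shock or handling in the FOS and FOSB levels was not tested.

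The transcripts behind FOS and FOSB also differed. FOSB-201, the first listed transcript, had 561, 293 and 417 expected counts in OE libraries and 0 in KD 1. It was also at 0 in OE control 3 and KD control 2, and at 0.95 in KD 2. In KD 1, 99.4% of the FOSB counts (690 of 695) were assigned to transcripts that hold bases of the introns of FOSB-201, against 16.9%, 23.4% and 19.4% in OE libraries. OE control libraries had 4.54%, 31.3% and 70.0% there, and KD control libraries 21.9%, 85.6% and 60.7%, on small totals. For FOS the share was 61.7% in KD 1, 36.0% in KD 2 and 39.0% in KD 3, against 28.8% to 34.4% in KD control. It was 18.3% to 41.3% in OE and 31.5% to 43.5% in OE control libraries. KD 1 thus lay above every other library, and OE 3, at 18.3%, below every other library. The splits between transcripts of a gene are model estimates from short reads, and no test was made of them.

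In OE cells FOSB reads were also assigned to forms with skipped exon stretches. FOSB-211 (ENST00000592436) lacks 140 bases of the last exon (chr19:45472707-45472846), the alternative splice known to give the truncated protein DeltaFosB. FOSB-211 had 117, 153 and 144 expected counts in OE libraries, against 3.80, 0 and 5.86 in OE control libraries, and at most 18.4 in any other library. FOSB-212 lacks the same 140 bases and also holds intron bases. It had 53.2 expected counts in KD 1, 0 in each OE library and at most 4.69 in any other library. FOSB-213 lacks 141 bases from the same position and had at most 16.3 in any library, so this splice was not confined to OE. FOSB-210 (ENST00000591858) lacks 117 bases of exon 2 (chr19:45470629-45470745). It had 202, 265 and 265 expected counts in OE libraries and was listed at 0 in the other 9 libraries.

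**Figure D3:**
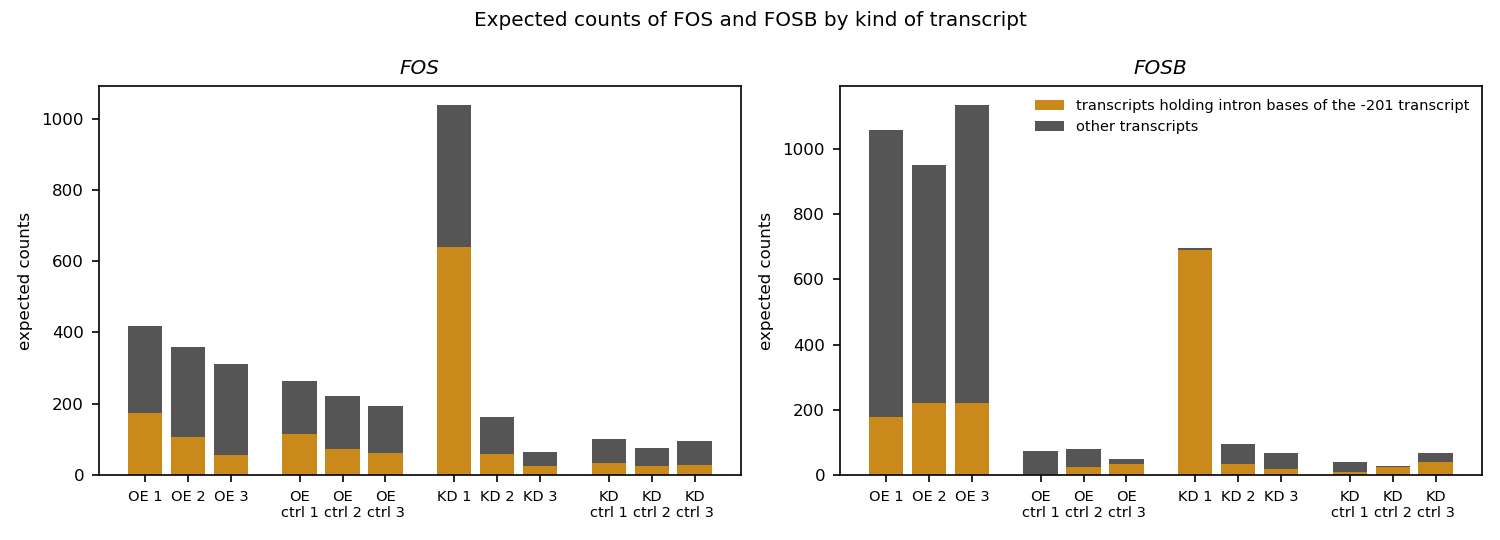
Expected counts of FOS and FOSB in each library, split into transcripts that hold intron bases of the first listed transcript and the other transcripts. FOSB counts in KD 1 are 99.4% of the intron-holding kind, against 16.9% to 23.4% in the 3 OE libraries.

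FOSL1 encodes FRA-1, a FOS protein without the strong activation domain of FOS, and lies at chr11:65892049-65900573 on the minus strand (ENSG00000175592). It had 98.9, 105 and 107 CPM in OE libraries, against 21.4, 20.2 and 24.9 in OE control libraries. The rise was 4.68-fold without overlap (log2 2.23 ± 0.39 SE, edgeR adjusted p = 0.00509). In KD libraries FOSL1 had 19.1, 16.7 and 59.3 CPM, against 105, 90.6 and 104 in KD control libraries, a 3.16-fold fall (log2 -1.66 ± 0.38 SE, edgeR adjusted p = 0.0106). All KD libraries were lower, with KD 3 nearest to KD control. The 2 arms differed by 3.88 (edgeR adjusted p = 0.000875). The calls held with each library left out, and the fall missed the threshold with only the 6 libraries of the knockdown arm in the fit (adjusted p = 0.0577). The most abundant form FOSL1-201 took 57.3%, 53.6% and 49.9% of FOSL1 counts in OE libraries, against 53.2%, 80.6% and 87.0% in OE control libraries, so that OE control 1 was near OE in this share and near the other OE control libraries in level.

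FOSL2 encodes FRA-2 and had the highest FPKM of the 8 genes in every library, at chr2:28392448-28417312 on the plus strand (ENSG00000075426), where it overlaps AC104695.3 and FLJ31356. Its FPKM was between 93.6 and 99.8 in OE libraries, against 61.5 to 93.5 in OE control libraries. In CPM it had 793, 750 and 800 in OE libraries, against 770, 488 and 501 in OE control libraries. OE control 1 lay within the range of OE, and the log2 difference of 0.41 did not pass (edgeR adjusted p = 0.103). Without OE control 1 it was 0.66 (adjusted p = 0.00435). In the knockdown arm FOSL2 had 558, 637 and 522 CPM in KD libraries, against 923, 885 and 1040 in KD control libraries. The fall was 1.66-fold without overlap (log2 -0.73 ± 0.17 SE, edgeR adjusted p = 0.0104) and held under every alternative run. The 2 arms differed by 1.14 (edgeR adjusted p = 0.00569).

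JDP2, the repressive partner of JUN proteins, lies at chr14:75427716-75474111 on the plus strand and overlaps AF111167.2 (ENSG00000140044). It had 44.1, 56.2 and 51.6 CPM in OE libraries, against 30.3, 19.6 and 17.5 in OE control libraries. The rise was 2.25-fold without overlap (log2 1.17 ± 0.26 SE, edgeR adjusted p = 0.013), and it narrowly missed the threshold without OE control 2 (adjusted p = 0.056) or OE control 3 (adjusted p = 0.0559). JDP2 had 23.5, 23.9 and 21.3 CPM in KD libraries, against 27.7, 33.6 and 16.4 in KD control libraries. KD lay within the range of KD control, and the log2 difference of -0.18 had an interval of -0.74 to 0.39 (edgeR adjusted p = 0.655). The arms differed by 1.35 (edgeR adjusted p = 0.0205), a call that ended without OE control 2 (adjusted p = 0.0519).

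Taking both arms in 1 model, 5 members responded more positively to overexpression than to knockdown and 0 the reverse, where 25.6% of all genes were called, 13.1% upward and 12.6% downward. These were JUN, JUND, FOSL1, FOSL2 and JDP2. JUNB, FOS and FOSB did not pass, with log2 differences of -0.60, -1.20 and 1.60. The FOS value was 0.49 without KD 1.

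The 2 control groups also differed in several of these genes. In OE control relative to KD control cells, 4 members were lower and 0 higher (edgeR adjusted p below 0.05), where 33.4% of all genes were called, 16.1% lower and 17.2% higher. JUN was lower by 2.47 on the log2 scale in OE control (log2 -2.47, edgeR adjusted p = 0.000127) and FOSL1 by 2.17 (log2 -2.17, edgeR adjusted p = 0.0023). FOSL2 differed by -0.70 (edgeR adjusted p = 0.00945) and JUND by -0.78 (edgeR adjusted p = 0.047), the JUND call ending without any 1 of 9 libraries and reaching adjusted p = 0.143 without OE control 2. In OE control 5 members were lower without overlap and 1, FOS, was higher, where 26.7% and 27.3% of all genes were. For JUN and FOSL1 the distance between the 2 controls was about as large as the overexpression response, and OE levels overlapped those of KD control. NR0B1 itself was higher in OE control than in KD control cells (log2 1.40, edgeR adjusted p = 0.0189), although OE control 1, at 17.9 CPM, lay within the range of KD control. Between the controls, JUN, FOSL1, FOSL2 and JUND thus differed in the direction opposite to NR0B1. This comparison uses the same control libraries as both arms, and the derivation of the control cells cannot be told apart from anything else that differed between the arms.

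Summed over the 8 genes, FPKM was 347 ± 8.45 in OE and 170 ± 32.4 in OE control cells (SD, n = 3 each), a ratio of 2.04 (2-sided exact permutation test p = 0.1, the smallest possible). In the knockdown arm the sum was 218 ± 26.9 in KD and 351 ± 10.3 in KD control cells (SD, n = 3 each), a ratio of 0.623 (2-sided exact permutation test p = 0.1). Neither pair overlapped. The FOS and FOSL genes together took 55.5% ± 1.199 of the sum in OE and 53.9% ± 1.60 in OE control cells, and 49.8% ± 6.32 in KD and 52.0% ± 2.24 in KD control cells (SD, n = 3 each). These shares overlapped between the groups in both arms (2-sided exact permutation p = 0.2 and 0.9). The direction in OE rests on the scaling to length: as a share of counts not scaled to length, the FOS and FOSL share was lower in OE than in OE control cells, by a difference of -9.24 percentage points. The make-up differed in the overexpression arm, with FOSL2 at 27.8% ± 0.913 of the family in OE and 42.1% ± 2.61 in OE control cells (SD, n = 3 each). FOSB took 6.46% ± 0.821 of the family's FPKM in OE and 0.684% ± 0.155 in OE control cells (SD, n = 3 each). In the knockdown arm FOSL2 took 33.4% ± 3.51 in KD and 34.7% ± 2.13 in KD control cells (SD, n = 3 each; 2-sided exact permutation test p = 0.7). There FOSB took 2.06% ± 2.10 and 0.212% ± 0.0806 (SD, n = 3 each; 2-sided exact permutation test p = 0.1), with KD 1 highest at 4.48%. In bulk libraries, a change in every cell and a change in a part of the cells cannot be told apart.

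**Figure D4:**
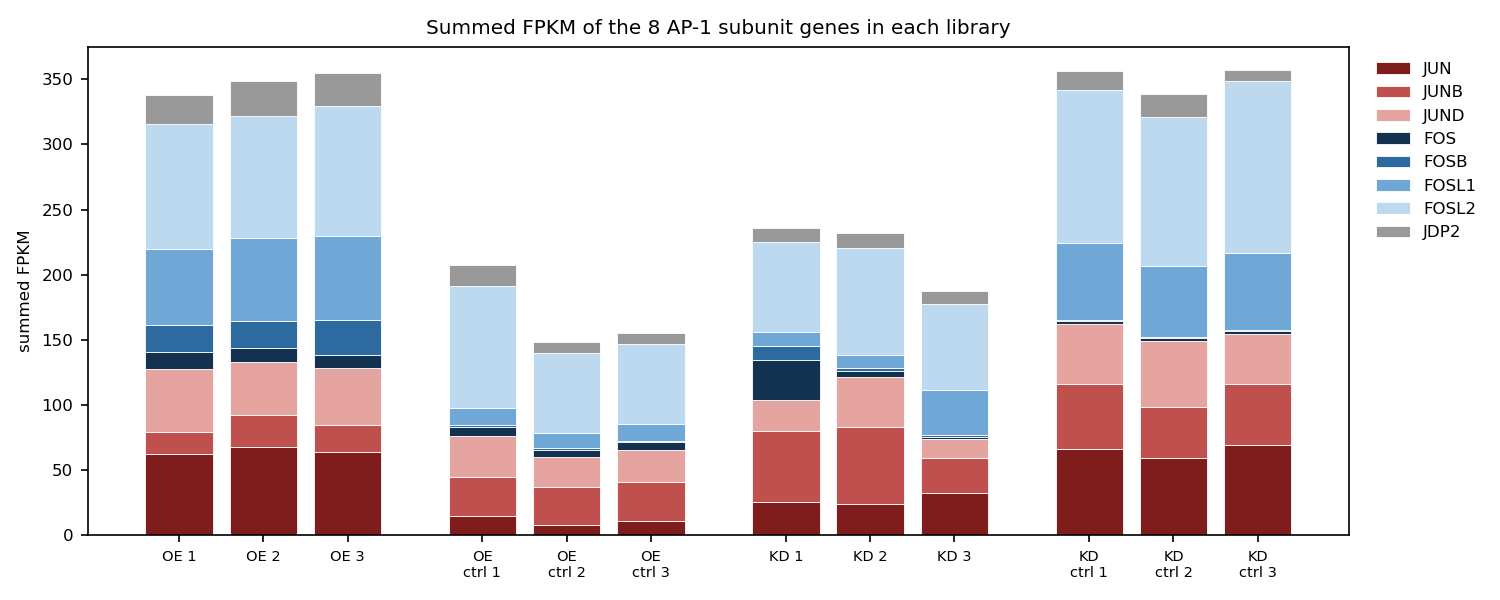
Summed FPKM of the 8 genes in each library, stacked by gene, JUN genes in red, FOS genes in blue and JDP2 in grey. The sum is 338 to 355 in OE, 148 to 208 in OE control, 187 to 236 in KD and 339 to 357 in KD control.

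The other genes around AP-1 were described by lists, to be read against medians over all genes tested of -0.03 in OE and 0.03 in KD and the shares of all genes called above. Among the bZIP partners (ATF, CREB and MAF proteins that can pair with or resemble AP-1 subunits), 5 of 16 tested rose and 0 fell in OE, with a median log2 difference of 0.44. MAFK, a small MAF protein, averaged 258 ± 31.0 CPM in OE and 73.7 ± 14.3 in OE control cells (SD, n = 3 each; edgeR adjusted p = 0.000373). The count of rises was 1 without OE 3, OE control 2 or OE control 3, 2 without OE 1 or OE 2 and 3 without KD control 2, and the MAFK call held with each library left out. In KD 5 partners fell and 1 rose, with a median of -0.19, and the falls numbered 3 without KD 3 or KD control 3. MAFK averaged 84.4 ± 14.5 CPM in KD and 182 ± 18.9 in KD control cells (SD, n = 3 each; edgeR adjusted p = 0.00136). ATF3, a stress-induced partner of JUN proteins, averaged 15.8 ± 10.04 CPM in KD and 113 ± 7.06 in KD control cells (SD, n = 3 each; edgeR adjusted p = 0.00281).

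Upstream genes were called in both directions. Of 20 MAP kinase pathway genes tested, 2 rose and 3 fell in OE and 1 rose and 0 fell in KD, with medians of -0.24 and 0.04. MAP2K4, which activates JNK, rose by 0.48 on the log2 scale in OE (edgeR adjusted p = 0.00807), and MAPK7, which encodes ERK5, rose by 0.96 in KD (edgeR adjusted p = 0.00377). Both held with each library left out, while the 3 falls in OE numbered 0 without OE 2, OE 3 or OE control 2, 1 without OE 1, OE control 3 or KD control 1, and 5 without KD 2. Of 8 genes for SRF and its cofactors, which drive FOS transcription, 2 rose and 1 fell in OE, and 0 rose and 3 fell in KD, with medians of 0.25 and -0.34. The rises in OE numbered 1 to 4 with single libraries left out, the highest without OE control 1, and SRF held in both arms. SRF averaged 107 ± 0.883 CPM in OE and 52.8 ± 4.22 in OE control cells (SD, n = 3 each; edgeR adjusted p = 0.00321). It averaged 46.2 ± 12.7 CPM in KD and 84.2 ± 5.23 in KD control cells (SD, n = 3 each; edgeR adjusted p = 0.00376).

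Of the 19 other immediate early genes tested, 11 rose and 2 fell in OE, with a median log2 difference of 1.02, and 3 rose and 7 fell in KD, with a median of -0.26. ATF3 and SRF also belong to this list. The rises numbered 7 to 12 with single libraries left out in OE, 7 without OE control 2 or OE control 3. The 3 rises in KD numbered 0 without any 1 of the KD control libraries and 1 without KD 2 or any 1 of OE 1, OE 2, OE 3, OE control 2 and OE control 3, and the falls stayed between 7 and 9. NR4A3, an orphan nuclear receptor, averaged 72.0 ± 11.96 CPM in OE and 2.08 ± 0.632 in OE control cells (SD, n = 3 each; edgeR adjusted p = 5.31e-05). CTGF averaged 194 ± 18.0 CPM in OE and 20.4 ± 1.999 in OE control cells (SD, n = 3 each; edgeR adjusted p = 6e-06). MYC averaged 156 ± 60.2 CPM in KD and 411 ± 34.6 in KD control cells (SD, n = 3 each; edgeR adjusted p = 0.00251). BTG2, an antiproliferative early gene, fell by 1.57 on the log2 scale in OE (edgeR adjusted p = 0.00194).

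Genes named in textbooks as AP-1 targets went both ways. Of 21 tested, 4 rose and 2 fell in OE, and 5 rose and 4 fell in KD, with medians of 0.27 and 0.31. PLAU, the urokinase gene with AP-1 elements in its enhancer, averaged 175 ± 8.61 CPM in OE and 391 ± 93.5 in OE control cells (SD, n = 3 each; edgeR adjusted p = 0.00731). HBEGF, an EGF receptor ligand, averaged 26.1 ± 1.81 CPM in OE and 6.56 ± 1.94 in OE control cells (SD, n = 3 each; edgeR adjusted p = 0.0119). AREG, another EGF receptor ligand, averaged 48.5 ± 12.7 CPM in KD and 113 ± 5.90 in KD control cells (SD, n = 3 each; edgeR adjusted p = 0.000589). SPHK1, a lipid kinase, averaged 4.17 ± 0.711 CPM in KD and 0.975 ± 0.156 in KD control cells (SD, n = 3 each; edgeR adjusted p = 0.00193). The rises in OE numbered 1 without OE 2, OE 3, OE control 2 or OE control 3 and 2 without OE 1. Those in KD numbered 2 without KD control 1 and 3 without KD control 2 or KD control 3.

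Of 11 genes for AP-1 turnover and repression, with medians of 0.02 in OE and 0.14 in KD, 1 rose in OE, which was FBXW7, a ubiquitin ligase subunit that recognises JUN (log2 0.50, edgeR adjusted p = 0.0367). That call ended without OE 1, OE 2, any OE control library or KD control 2 (adjusted p up to 0.121). TSC22D3, a glucocorticoid-induced binder of AP-1, fell by 1.45 on the log2 scale in KD (edgeR adjusted p = 0.00703), and MEN1, a binder of JUND, rose by 0.82 (edgeR adjusted p = 0.00827). Of 7 heat shock genes, 1 rose and 1 fell in OE, and 4 rose and 0 fell in KD, with medians of 1.03 and 1.45. The rises in OE numbered 5 without KD 3 and 3 without KD 2. HSPB1 fell by 0.70 on the log2 scale in OE (log2 -0.70, edgeR adjusted p = 0.0156) and rose by 1.45 in KD (edgeR adjusted p = 0.000333). The fall in OE missed the threshold without OE 2, OE 3, OE control 2 or OE control 3 (adjusted p from 0.0523 to 0.0636), and the 4 rises in KD held with each library left out. The part of this list in the members' changes was not tested.

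**Figure D5:**
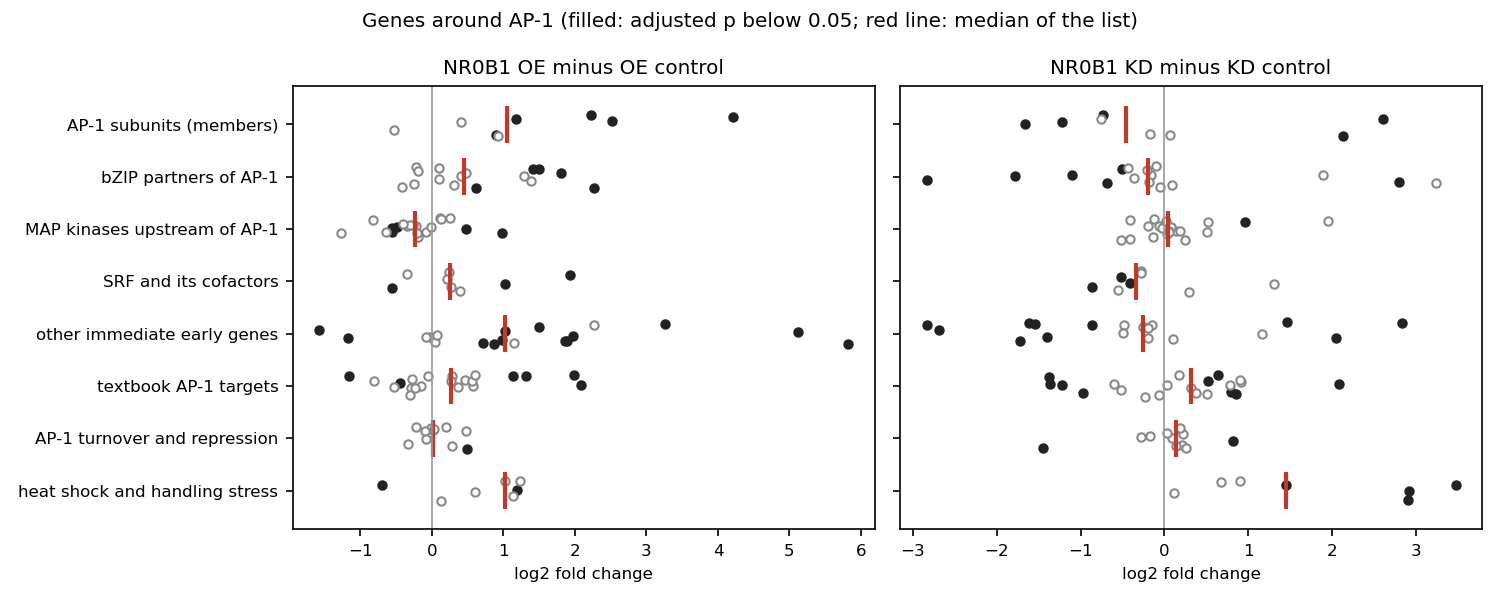
Log2 differences of the tested genes of each list in the 2 arms, 1 point per gene, filled where the edgeR adjusted p is below 0.05, with a red line at the median of the list. The other immediate early genes have medians of 1.02 in OE and -0.26 in KD.

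The genes whose pattern over the 12 libraries lay nearest to each member were found by the root mean square distance of centred log2(CPM + 1). MYC, SNAI2 and CHML were nearest to JUN, at 0.31, 0.32 and 0.37. ADM, MYC and HBEGF were nearest to FOSL1, at 0.36, 0.42 and 0.43. FOSL2 had the closest neighbours, PHF20L1 at 0.10, MLLT6 at 0.11 and C5orf51 at 0.12, where the member itself varied least (SD 0.35 on the log2 scale). JUNB lay nearest to MNX1 (0.20), NBPF14 (0.22) and XPC (0.23), JUND to MTHFD2 (0.23), VEGFA (0.24) and ATXN7 (0.24), and JDP2 to HEXIM1 (0.24), GPR135 (0.25) and PGBD2 (0.25). FOSB, with an SD of 1.85, had EGR3 at 0.58, EGR1 at 1.007 and ZC3HAV1 at 1.03, and FOS had WNK2 at 0.58, B4GALNT4 at 0.66 and FGFR3 at 0.69. These are descriptions over libraries that share 4 groups.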

How the data were processed

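Enriched mRNA of 12 A549 libraries (3 µg RNA each, NEBNext Ultra kit, per the labels' protocols) was sequenced. The authors deposited expected counts and FPKM per transcript, per the file headers. The tools named in the submitters' processing notes are RSEM, StringTie 1.3.1, Bowtie2 2.2.8, HISAT2 2.0.5 and fastp. These notes also name the mouse builds GRCm38 and mm10, although the identifiers are human, so coordinates were taken from GENCODE 29 (GRCh38), which holds 82237 of the 82270 Ensembl transcripts. Strand is not given in the sources used here, so reads of overlapping genes cannot be told apart.

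The deposited expected counts and FPKM of Ensembl transcripts were summed per symbol, giving 19647 genes. The other 13977 transcripts, assembled ones with 13.3% to 15.4% of the counts, were left out. In 184 transcripts a symbol turned into a date was restored. Counts were rounded, scaled by TMM and tested with edgeR 4.0.16 (quasi-likelihood, R 4.3.3) in 1 model of 4 group means over 12 libraries with 8 residual degrees of freedom, for the 11908 genes with FPKM of at least 1 in at least 3 libraries. P-values were adjusted over all genes tested (Benjamini-Hochberg) and called below 0.05. Shares used exact permutation tests. The count totals of 15049011 to 22797076 per library set the precision, and 3 counts correspond to 0.155 to 0.235 CPM. Replicates differed beyond sampling noise, so none was merged. The code was tested on simulated data.

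Alternatives were DESeq2 1.42.0 and its size factors, limma 3.58.1 on log2(FPKM + 1) and log2(FPKM + 0.1), no filter, only the libraries of an arm, a replicate block, assembled transcripts added, and each library left out. Leaving out OE control 1 and KD 2 together was chosen after seeing the data. The members and lists were chosen with earlier results of these data known. Genes named were the 8 members, NR0B1, up to 4 called genes per list and arm with the smallest adjusted p, and the 3 nearest genes of each member, of which some are left out here. EGR1 and EGR3 in KD 1, and NR4A1 and NR4A2 in KD 2, were named after their values were seen.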

Additional observations from a re-analysis of the deposited data

Results flagged for a closer look

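The 2 arms' responses differed by the test of the difference itself for 5 members. Of all genes tested, 25.6% were called by it, 13.1% upward and 12.6% downward. The difference of the overexpression and knockdown responses on the log2 scale was 3.75 for JUN, 1.65 for JUND, 3.88 for FOSL1, 1.14 for FOSL2 and 1.35 for JDP2 (edgeR adjusted p from 5.75e-05 to 0.0205). The JDP2 call ended without OE control 2 (edgeR adjusted p = 0.0519).

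Assembled transcripts, which were outside the gene values, carried the symbols FOS and FOSB. The FOSB one held more counts in all 6 OE and KD libraries than in any control library of the arm, and the FOS one in 2 of the 6. For FOS, OE 1 and OE 2 had 4.74 and 0 expected counts and OE 3 had 8.33, against at most 6.64 in OE control libraries, and KD 1 had 280.58, KD 2 had 4.99 and KD 3 had 0, against at most 5.16 in KD control libraries. For FOSB, OE 1, OE 2 and OE 3 had 195.3, 226.11 and 235.33 expected counts, against at most 11.1 in OE control libraries. KD 1, KD 2 and KD 3 had 231.18, 18.7 and 13.09 expected counts of it, against at most 11.73 in KD control libraries. With these transcripts added, 5 members were called in OE and 6 in KD, where JUND was the added call (edgeR adjusted p = 0.0489). Without them, 18.1% of all genes tested were called in OE and 23.9% in KD. The 6 include FOS and FOSB, whose calls without these transcripts were lost when KD 1 was left out.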

How the results depend on the processing

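Of 664 repeats of a member's test, 592 kept direction and side of the threshold, 44 lost the call, 19 gained it and 9 reversed. JUN in both arms, FOSB and FOSL1 in OE and FOSL2 in KD kept their calls throughout. With single libraries left out, members called ranged from 3 to 6 in OE and from 3 to 6 in KD, the lowest without OE control 2 or 3 and without KD 1, KD control 1 or KD control 2. With only the libraries of the knockdown arm, 2 were called. As shares of counts not scaled to length, the FOS and FOSL share in OE differed by -9.24 points and the JUN share by 41.0 points; the FOS and FOSL difference in KD was 1.28 points without KD 2 and -4.90 without KD 3. JUNB in KD reversed with limma (-0.032 with pseudocount 1, -0.034 with 0.1), without KD 1 (-0.06), KD 2 (-0.12), KD control 2 (-0.04), or OE control 1 and KD 2 together (-0.12), and was at most 0.34 with 1 library left out. Without KD control 2, JDP2 turned to 0.051 in KD and to 0.019 between the controls (lowest with other libraries left out -0.42 and -0.48), and without KD 1 the FOS arm difference turned to 0.49 (lowest -1.69). The cause was not tested. Replicate numbers did not pair the libraries (3 of 12 correlated best with their own number); with a replicate block 5 members were called in OE and 4 in KD, where FOS gave 1.68 (adjusted p = 0.0856). Depth limits FOS and FOSB transcript shares where counts are few.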
